A study of Mus musculus with 5 samples.

Results

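The nuclear genes of the respiratory chain and the ATP synthase were followed across 5 clones of mouse cardiac progenitor cells. The genes were taken by symbol: those that start with Nduf (complex I), Uqcr (complex III), Cox4 to Cox8 (complex IV) or Atp5 (complex V, the ATP synthase), with Sdha, Sdhb, Sdhc and Sdhd (complex II) and Cyc1 (complex III). This gave 91 of the 18193 genes that had a probe set of their own, on 180 of 34945 such probe sets, and 79 of the 91 genes could be measured. The clones, named 1D, 11B, 20B, 30 and 42, were each grown from the left ventricle of mice aged 5-6 months, of the strain given as C67BL/6, and are described as c-kit+ cells. All had been selected with an antibody to Sca-1, expanded through cardiospheres, then cloned with rings and subcloned by serial dilution, so each line is 1 clone. Total RNA of each clone was hybridised to 1 Affymetrix expression array. No clone had a replicate, so no difference was tested, and every value below describes 1 array per clone.

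The respiratory chain sits in the inner mitochondrial membrane. Complexes I and II feed electrons from NADH and succinate to coenzyme Q, complex III passes them to cytochrome c, and complex IV passes them to oxygen. Complexes I, III and IV pump protons as they do so, and complex V lets the protons back in to make ATP. Heart muscle is among the tissues richest in these complexes, and it uses its own isoforms of several complex IV subunits. Most subunits are encoded in the nucleus and the rest in mitochondrial DNA. No gene of mitochondrial DNA had a probe set of its own here, so the data concern the nuclear share.

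The deposited values are taken as ratios with no expression level, as read from the values, since no header states the unit. Each probe set had a median over the clones of exactly 1 or below 1. Those below 1 are taken to be set against a floor because of low signal, which the ratios themselves do not show. Differences between clones are given in log2 units, where 1 unit is 2-fold, and a gene's value is the mean over its measured probe sets. The deviation of a clone is its log2 value minus the median of the other 4 clones, and the range of a gene is its highest clone minus its lowest. The 5 deviations of a gene share arrays with one another. Where a member had more than 1 measured probe set, the deviations of its probe sets differed by 0.183 log2 units (SD, 57 pairs), which is an error of 0.129 for a single probe set, against 0.341 over all genes (6681 pairs). This error covers the probes only, not the culture or the RNA preparation, and 50 of the 79 measured members rested on 1 probe set.

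The promoters of 4 members whose values lead the account below are shown here, from RefSeq on GRCm38.p6, each running from 250 bases before to 50 bases after the start of the gene. Atp5d (chr10:80142025-80142324, plus strand), Ndufs7 (chr10:80249199-80249498, plus strand) and Uqcr11 (chr10:80406772-80407071, minus strand) are members that lie near each other and stood apart in the same 2 clones. Sdha (chr13:74350191-74350490, minus strand) had the largest range of the 79. Capitals mark matches, on either strand, to 3 motifs of factors known to act at promoters of respiratory genes: GCGC, any base and TGCGC for NRF-1, CCGGAAG for ETS factors such as GABP, and AAGATGGCG for YY1.
Atp5d: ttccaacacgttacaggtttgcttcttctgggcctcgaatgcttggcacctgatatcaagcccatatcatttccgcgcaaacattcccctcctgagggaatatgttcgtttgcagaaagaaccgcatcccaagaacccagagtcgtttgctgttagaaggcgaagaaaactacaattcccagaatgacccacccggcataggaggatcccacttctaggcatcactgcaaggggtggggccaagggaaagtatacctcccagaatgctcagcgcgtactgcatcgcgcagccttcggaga
Ndufs7: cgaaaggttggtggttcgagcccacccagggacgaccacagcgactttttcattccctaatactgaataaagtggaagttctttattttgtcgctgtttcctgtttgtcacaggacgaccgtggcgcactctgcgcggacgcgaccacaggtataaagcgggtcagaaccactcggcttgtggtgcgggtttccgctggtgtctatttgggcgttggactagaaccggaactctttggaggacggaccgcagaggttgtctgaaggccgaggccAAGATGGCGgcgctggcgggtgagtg
Uqcr11: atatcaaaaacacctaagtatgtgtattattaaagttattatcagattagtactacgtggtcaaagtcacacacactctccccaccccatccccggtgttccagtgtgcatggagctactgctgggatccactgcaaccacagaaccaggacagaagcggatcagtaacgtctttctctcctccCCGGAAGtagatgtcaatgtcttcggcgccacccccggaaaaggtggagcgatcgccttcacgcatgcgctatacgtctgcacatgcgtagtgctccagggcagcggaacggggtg
Sdha: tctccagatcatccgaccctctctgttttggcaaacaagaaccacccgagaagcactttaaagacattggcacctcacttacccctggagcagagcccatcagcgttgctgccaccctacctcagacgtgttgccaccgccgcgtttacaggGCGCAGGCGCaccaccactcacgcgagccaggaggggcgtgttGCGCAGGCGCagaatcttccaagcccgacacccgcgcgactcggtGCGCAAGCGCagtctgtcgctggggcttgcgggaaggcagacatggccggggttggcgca
The Sdha window held 3 NRF-1 matches, the Ndufs7 window 1 YY1 match and the Uqcr11 window 1 ETS match, while none of these letters were found in the Atp5d window. The 3 chromosome 10 promoters thus shared none of these motifs in these windows. Promoter windows were at hand for 74 of the 91 members. Among their 79 windows, the NRF-1 letters were in 22.8%, the ETS letters in 24.1% and the YY1 letters in 8.86%. Among all 32851 promoter windows the shares were 4.60%, 8.86% and 1.40%, and among the 9897 windows of measured genes they were 9.56%, 16.1% and 2.89%. A match is a description of the letters, not a binding site.

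As a whole the module differed little between the clones. The median deviation of the 79 measured members was -0.01 in clone 1D, 0.00 in clone 11B, 0.00 in clone 20B, 0.07 in clone 30 and -0.01 in clone 42. Without clone 11B the median in clone 30 was 0.02. For all 9435 measured genes it lay between -0.01 and 0.00 in each clone. Single members differed more than the module did. A range of at least 1 log2 unit was found for 12 of the 79 members (15.2%), against 13.0% of all measured genes, so the share was near the background. At 0.5 log2 units the share was 49 of 79 (62.0%), against 41.5%. In other gene lists that share was 83.3% for protein import and 62.2% for proteasome subunits. It was 50% for mitochondrial and for cytosolic ribosomal proteins, and 38.5% for the TCA cycle. The median range was 0.56 for the members and 0.41 for all measured genes, where flat probe sets had been left out of both. Without clone 30, 7 members ranged over at least 1 log2 unit, and the share of all measured genes in that setting is not given here.

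Clone 30 was the highest of the 5 for 27 of the 79 members (34.2%), against 22.7% of all measured genes. Clone 11B was the highest for 19 (24.1%, against 18.9%), clone 42 for 13 (16.5%, against 22.5%), clone 1D for 11 (13.9%, against 19.2%) and clone 20B for 9 (11.4%, against 16.7%). A deviation of at least 0.5 log2 units upward was found in clone 30 for 11 members (13.9%), against a background of 6.19%, and a deviation as far downward for 2 (2.53%), against 6.89%. Clone 1D showed the other direction, with 7 members (8.86%) at least 0.5 units below, against 2.36%, and 3 (3.80%) above, against 5.57% (5 above with clone 11B or clone 42 left out). In clone 11B, 7 members lay above and 4 below (7 below with clone 1D left out), against backgrounds of 4.46% and 4.71%. In clone 20B, 4 lay above and 5 below, against 4.30% and 2.09%. In clone 42, 3 lay above and 3 below, against 6.38% and 3.94%. RNA spikes added to the samples, which no cell makes, moved in the same directions: the median log2 ratio of the 24 spike probe sets was 0.33 in clone 30 and -0.21 in clone 1D, and it was -0.40 in clone 42, where the members did not lie low. The 18 probe sets of the hybridization controls did not move so, with medians of -0.02 in clone 30, 0.04 in clone 1D and -0.06 in clone 42. The part of the spikes in the high values of clone 30 and the low values of clone 1D was not tested. The deposited Actb value at the 5' end divided by that at the 3' end was 0.597 in clone 11B and 0.743 in clone 30. It was 1.00 to 1.08 in the other clones. Both values are already scaled for their own probe set. The result thus compares the clones and does not show how intact the RNA of any clone was. The part of this difference in any result was not tested. In these bulk cultures fewer cells of a kind and less RNA per cell cannot be told apart.

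**Figure D1:**
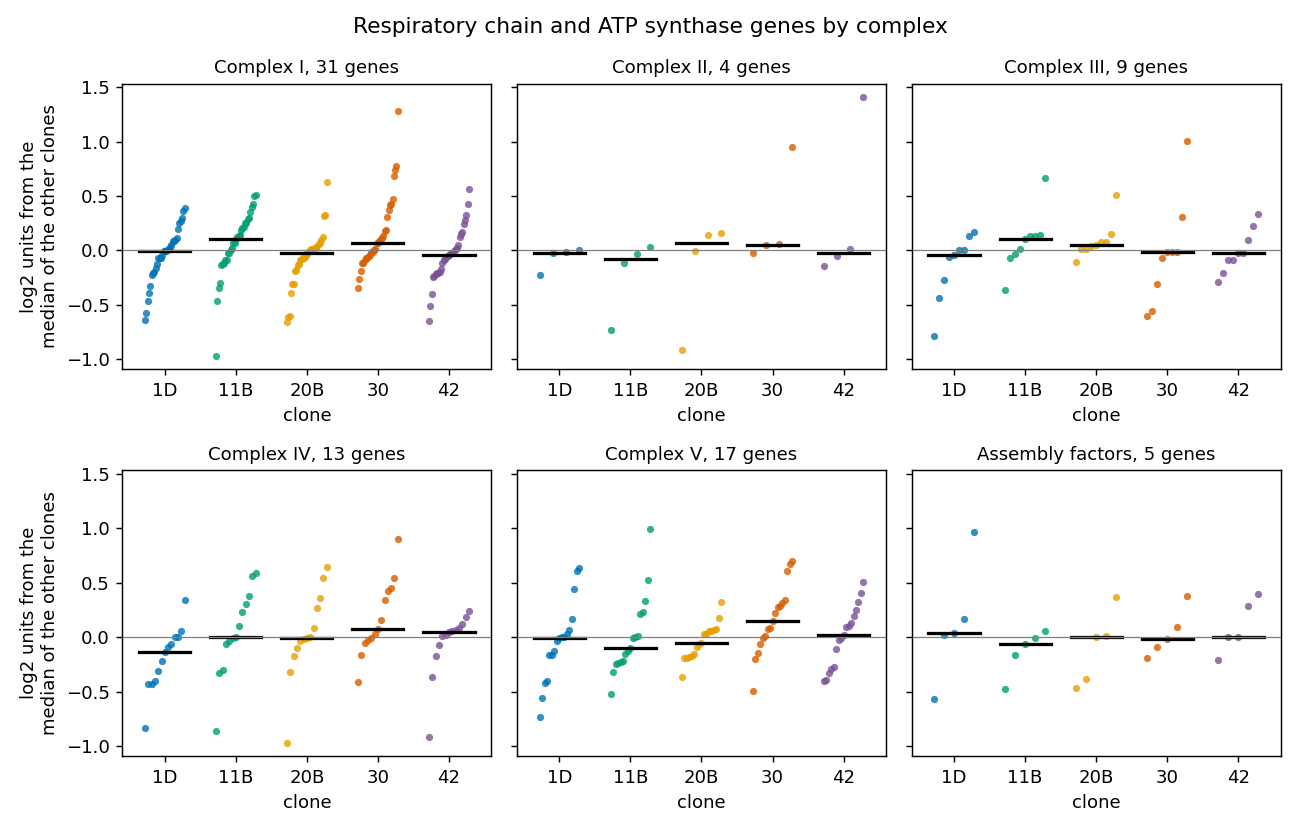
Deviation of each measured member (points, in log2 units from the median of the other 4 clones) by clone, in 1 panel per complex; black bars are medians and 1 array was measured per clone. The medians lie near 0, with complex V in clone 30 at 0.15 and complex IV in clone 1D at -0.14, while single subunits reach 1.41 (Sdha in clone 42).

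Complex I, which takes electrons from NADH, had 31 of its 34 genes measured. Of them, 4 (12.9%, against 13.0% of all measured genes) ranged over at least 1 log2 unit, so the share was near the background. Its median deviation was 0.10 in clone 11B (0.02 without clone 20B) and 0.07 in clone 30, and between -0.04 and -0.01 in the other clones. Ndufs7, a core subunit that carries an iron-sulfur cluster, had the largest range in the complex. Its ratio on 1 probe set was 2.45 in clone 30, 1.58 in clone 20B, 1.00 in clone 42, 0.931 in clone 11B and 0.846 in clone 1D. On its other probe set the ratios were 2.11 in clone 30, 1.32 in clone 20B, 1.00 in clone 42, 0.820 in clone 11B and 0.706 in clone 1D. Both probe sets ordered the 5 clones alike, and the mean deviation of clone 30 was 1.28 log2 units. Ndufs8, another iron-sulfur core subunit, did not follow it: its log2 value was -0.06 in clone 30 and 0.33 in clone 20B. The difference of Ndufs7 minus Ndufs8 was 1.24 in clone 30 and between -0.38 and 0.20 in the other clones.

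The other complex I genes with large ranges were accessory subunits, which surround the core and are needed for its assembly or stability. The ratio of Ndufb10 was 0.576 in clone 11B and 0.744 in clone 20B, against 1.48 in clone 30, 1.28 in clone 42 and 1.00 in clone 1D. The ratio of Ndufa13, also known as GRIM-19, was 1.45 in clone 30, against 1.13 in clone 42, 1.00 in clone 11B, 0.809 in clone 1D and 0.696 in clone 20B. Ndufb7 was low in both clone 20B and clone 42, with ratios of 0.624 and 0.623 on 1 probe set, against 1.42 in clone 30 and 1.00 in clones 1D and 11B. Its other probe set gave 0.686 in clone 20B and 0.700 in clone 42, against 1.30 in clone 30, so both probe sets placed the same clones low. Ndufb10, Ndufa13, Ndufb7 and Ndufs7 were thus all highest in clone 30, while the lowest clone was 11B for Ndufb10, 1D for Ndufs7 and 20B for Ndufa13 and Ndufb7. Accessory subunits with smaller ranges were Ndufa7, with a deviation of -0.57 in clone 1D over 5 probe sets (-0.08 on the probe set with the largest mean), Ndufa6, with deviations of 0.51 in clone 11B and -0.51 in clone 42, and Ndufs4, with -0.39 in clone 20B. On that 1 probe set of Ndufa7, the ratios in clones 1D, 11B and 20B recurred unchanged on 40 other probe sets. Differences among these clones cannot be read there. The other probe sets of Ndufa7 had ratios of 0.580 to 0.744 in clone 1D.

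Complex II oxidises succinate and belongs both to the respiratory chain and to the TCA cycle. Sdha, its flavoprotein with the succinate site, had the largest range of all 79 members, at 1.77 log2 units or 3.40-fold. Its ratio was 2.37 in clone 42, 1.73 in clone 30, 1.00 in clone 1D, 0.793 in clone 11B and 0.697 in clone 20B. These values rest on 1 measured probe set; the 3 further probe sets of Sdha were held near the floor, and on 1 of them clone 42 was also the highest, with a ratio of 0.808 against 0.600 to 0.603 in the other clones. With all 4 probe sets averaged, the deviation in clone 42 was 0.46. The iron-sulfur subunit Sdhb ranged over 0.27, and the membrane anchors Sdhc and Sdhd over 0.17 and 0.19. The ratios of Sdhb in clones 1D, 30 and 42 recurred unchanged on 785 other probe sets, and those of 1 of the 2 Sdhd probe sets in clones 1D, 20B and 42 on 38 others, so differences among these clones cannot be read there, and Sdha is not set against them.

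Complex III hands electrons to cytochrome c, and all 9 of its genes were measured. Uqcr11, a small accessory subunit, had a ratio of 1.82 in clone 30 and 0.581 in clone 1D, against 0.823 in clone 42 and about 1.00 in clones 11B and 20B. No other gene of the complex ranged over 1 log2 unit. The Rieske iron-sulfur protein gene Uqcrfs1 and the hinge protein gene Uqcrh pointed the other way from Uqcr11 in clone 30, with deviations of -0.60 and -0.56. The core protein gene Uqcrc1 was highest in clone 20B, with a deviation of 0.51. Uqcrb, which binds coenzyme Q in the complex, was highest in clone 11B, with a deviation of 0.66. Its ratios in clones 1D, 20B and 30 recurred unchanged on 883 other probe sets, so these 3 clones share a set level there, their closeness is no measurement and the size of the difference in clone 11B is uncertain. Levels shared by at least 3 clones were found on 19 of the 119 measured member probe sets, and on none of those of the 12 members with ranges of at least 1 log2 unit. A level shared by 3 clones leaves less room for such a range. The share over all measured probe sets is not given here.

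Complex IV reduces oxygen, and 13 of its 17 genes were measured. The median deviation was -0.14 in clone 1D, where 3 of the 13 genes lay above 0 (23.1%, against 51.6% of all measured genes), and between -0.01 and 0.07 in the other clones. Ndufa4, named for complex I but found as a subunit of complex IV, had the largest range. Its ratio was 0.554 in clone 20B and 0.610 in clone 1D, against 1.46 in clone 30, 1.18 in clone 11B and 1.00 in clone 42. Cox7a2, the form of subunit VIIa made in most tissues, was low in clone 42 on both probe sets. The ratios there were 0.579 and 0.560, against 1.36 and 1.19 in clone 30, 1.20 and 1.11 in clone 11B, 1.00 on both in clone 20B, and 0.816 and 0.919 in clone 1D. Cox4i1, the common form of the largest nuclear-encoded subunit, had a ratio of 0.620 in clone 11B, against 1.34 in clone 30, 1.27 in clone 1D and about 1.00 in clones 20B and 42. Cox5a, which binds Cox4i1 in the complex, was instead high in clone 20B (deviation 0.64) and in clone 30 (0.55), over 3 probe sets.

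The isoforms used by mature heart and muscle could mostly not be followed. Cox7a1 lay at the floor, and Cox8b was flat at its own median. Cox4i2, known as a lung form, also lay at the floor. Ckmt2, the mitochondrial creatine kinase of muscle, was not measured either. A floor value does not show that a transcript is absent. The muscle form Cox6a2 was measured on 1 probe set and was highest in clone 20B, with a ratio of 1.46, against 1.09 in clone 42, 1.00 in clone 1D, 0.998 in clone 11B and 0.932 in clone 30. Its common counterpart Cox6a1 was lowest in clone 1D, with a deviation of -0.43. Of the other common forms, Cox6b1 ranged over 0.56 and Cox8a over 0.55. The testis form Cox6b2 ranged over 0.05, barely enough to count as measured, and 4 clones lay within 0.02 log2 units of one another. The testis form Cox8c ranged over 0.52 on 1 probe set marked for cross-hybridization, while its other probe set was flat. Of 9 cardiomyocyte markers 4 were measured, and Myh6 alone ranged over 0.5 log2 units, with a deviation of 0.55 in clone 42. Kit, the receptor in the cells' label, was measured with a range of 0.26, Pou5f1 lay at the floor, and Ly6a, which encodes Sca-1, had no probe set of its own, so the label could not be checked by level. None of 6 endothelial markers was measured. Of 6 leukocyte markers 1 was, Adgre1, with a range of 0.24. Of 8 fibroblast markers 4 were measured, and in clone 42 their deviations were -2.17 for Col1a1, -6.45 for Col3a1, 0.99 for Pdgfra and -0.02 for Postn. Of 5 smooth muscle markers 4 were measured, with ranges from 0.07 to 2.02, and Tagln was high in clone 30, at 1.83. All 4 were highest in clone 30, against 22.7% of all measured genes. All 4 were lowest in clone 1D, against 15.3%. The part of these markers in the members' values was not tested.

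**Figure D2:**
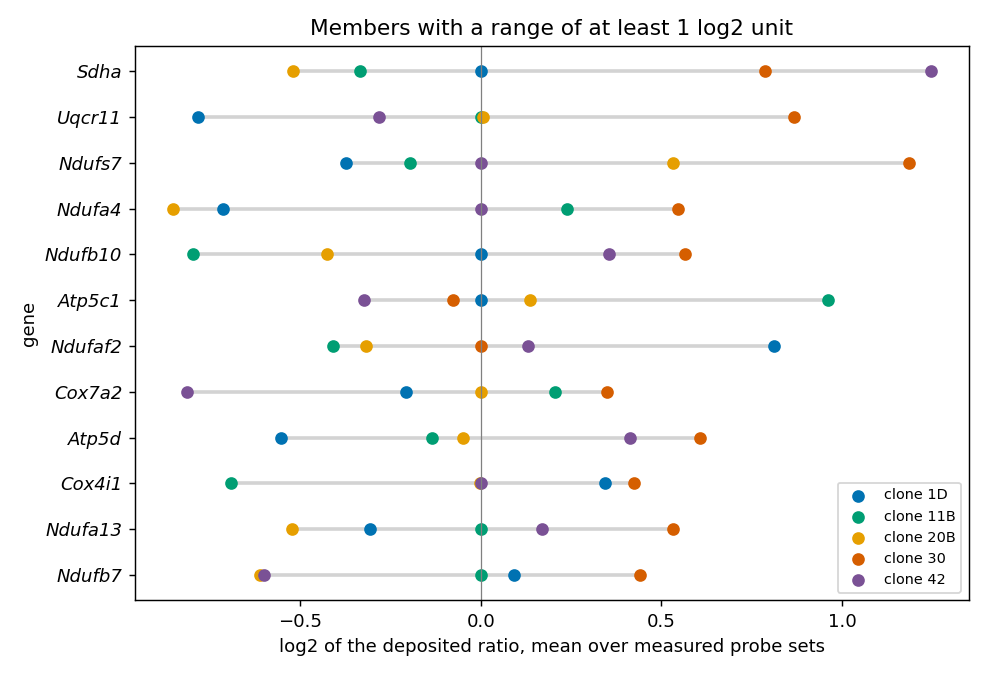
Log2 ratio of the 12 members with a range of at least 1 log2 unit (rows), with 1 point per clone and a grey line from the lowest clone to the highest. Clone 30 is the highest for 9 of the 12, against 22.7% of all measured genes whatever their range. The share among all genes with so wide a range is not given here. The lowest clone differs from gene to gene.

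Complex V makes ATP from the proton gradient, and all 17 of its genes were measured. In clone 30 its median deviation was 0.15, with 12 of the 17 genes above 0 (70.6%, against 42.4% of all measured genes), and in clone 11B it was -0.10. The catalytic head of the enzyme is built from alpha, beta, gamma, delta and epsilon subunits, and its genes did not keep step. The ratio of Atp5c1, the gamma subunit that turns inside the head, was 1.94 in clone 11B, against 1.10 in clone 20B, 1.00 in clone 1D, 0.949 in clone 30 and 0.799 in clone 42. With its floor-held probe set averaged in, its deviation in clone 11B was 0.50, against 1.00 without. Atp5d, the delta subunit of the same central stalk, was high in clone 30, with ratios of 1.70 and 1.36 on its 2 probe sets, and in clone 42, with 1.42 and 1.25. It was low in clone 1D, with ratios of 0.693 and 0.672, while clone 11B had 0.831 and 1.00 and clone 20B 1.00 and 0.935. Atp5d minus Atp5c1 was -1.09 in clone 11B, -0.55 in clone 1D and -0.19 in clone 20B, against 0.68 in clone 30 and 0.74 in clone 42.

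The alpha and beta subunits, which alternate in the catalytic ring, parted in clone 1D. The ratio of Atp5a1 was 1.51 in clone 1D, against 1.15 in clone 42, 1.00 in clone 30, 0.943 in clone 20B and 0.922 in clone 11B. These values rest on 1 of its 3 probe sets, and the others were held near the floor. One of those had 0.78 in clone 1D, against 0.774 to 0.784 elsewhere. The other had 0.706 in clone 1D, against 0.692 to 0.754. The ratio of Atp5b was 0.684 in clone 1D, against 1.16 in clone 30, 1.02 in clone 42, 1.00 in clone 20B and 0.904 in clone 11B. Atp5b minus Atp5a1 was therefore -1.15 in clone 1D and between -0.18 and 0.21 in the other clones. These comparisons between partner subunits were picked after their values were seen. The peripheral stalk gene Atp5j was also high in clone 1D, with a deviation of 0.61, and Atp5j2, the f subunit of the membrane part, was low in clone 11B, at -0.52. The genes Atp5g1, Atp5g2 and Atp5g3, encode the same subunit c of the proton-driven ring. Atp5g1 and Atp5g2 were both highest in clone 30, with deviations of 0.67 and 0.61 (0.21 for Atp5g2 with its floor-held probe sets averaged in), and Atp5g3 ranged over 0.40, with its largest deviation, -0.27, in clone 42.

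The symbols also take in factors that help to build complex I, of which 5 were measured. Ndufaf2, a factor that acts late in the assembly, had a ratio of 1.75 in clone 1D, against 1.09 in clone 42, 1.00 in clone 30, 0.803 in clone 20B and 0.753 in clone 11B. Ndufaf3 was low in clone 1D (deviation -0.56) and Ndufaf5 low in clone 20B (-0.46). Ndufaf1 ranged over 0.35 and Ndufaf8 over 0.07. The ratios of Ndufaf1 in clones 11B, 20B and 42 recurred unchanged on 503 other probe sets, so differences among these clones cannot be read there. Over all 79 measured members the range ran from 0.05 to 1.77 log2 units.

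Several of the members that stood out had neighbours on the chromosome that stood out in the same clone. Atp5d, Ndufs7 and Uqcr11 belong to complexes V, I and III and lie in this order on chromosome 10, with 11 other measured genes among them. All 3 were high in clone 30, with deviations of 0.70, 1.28 and 1.01, and low in clone 1D, with -0.73, -0.64 and -0.79. Of the 11 other genes, 10 lay above 0 in clone 30, with a median of 0.17, and 4 of them by at least 0.5: Midn, Rps15, Adamtsl5 and Mbd3. In clone 1D, 10 of the 11 lay below 0, with a median of -0.21, and Midn and Mex3d by at least 0.5. Over all 9435 measured genes, 42.4% lay above 0 in clone 30 and 6.19% by at least 0.5, with a median of -0.01. In clone 1D, 4568 of the 9435 lay below 0 and 2.36% by at least 0.5, with a median of 0.00. Of the 11 other genes, Rps15 encodes a protein of the cytosolic ribosome and Mbd3 a subunit of the NuRD chromatin complex. Another 2 mitochondrial genes of chromosome 10 had the same pattern: Polrmt, the RNA polymerase of mitochondria, 16 measured genes before Atp5d, with 0.96 in clone 30 and -0.70 in clone 1D, and Timm13, a chaperone of protein import, 17 measured genes after Uqcr11, with 1.18 and -0.80. These 2 were picked after their values were seen. The share of all chromosome 10 genes with this pattern is not given here. Chromosome 10 holds 5 measured members, and those outside the run are not described here.

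Sdha on chromosome 13 was high in clones 42 and 30. Of the 20 measured genes nearest to it, 4 (20%, against 6.38% of all measured genes) were at least 0.5 units higher in clone 42: Clptm1l, Cep72, Exoc3 and Pdcd6, all on 1 side of it. Pdcd6, the next measured gene, had deviations of 0.60 in clone 42 and 0.81 in clone 30. Atp5c1 on chromosome 2 was high in clone 11B, and 9 of its 20 nearest measured genes (45%, against 4.46%) were high there too, among them Sec61a2 at 1.98, Celf2 at 1.46 and Vim, which encodes vimentin, at 1.02. Around Ndufaf2, on another stretch of chromosome 13, 7 of 20 were high in clone 1D (35%, against 5.57%), with the DNA repair gene Ercc8 next to it at 1.44. Around Ndufb10 on chromosome 17, 4 of 20 were low in clone 11B (20%, against 4.71%), with Fahd1 at -1.04 and Tbl3 at -0.96. Around Cox7a2 on chromosome 9 it was 3 of 20 in clone 42 (15%, against 3.94%), and around Ndufb7 on chromosome 8 it was 2 of 20 in clone 30 (10%, against 6.19%). Ndufb7 was also low in clone 42, at -0.65, where no count was made. Several of its neighbours were low there too, among them Anapc10 at -1.12, Tecr at -0.63, Prkaca at -0.62 and Gipc1 at -0.54. Others were not, such as Smarca5 at 0.17 and Adgre5 at 0.16. No neighbour followed Ndufa4 in clone 20B, Cox4i1 in clone 11B or Ndufa13 in clone 30, which had 0 of 20 each. Each count was made only in the clone where that member lay farthest from the median of the others, and gene copy number was not measured.

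**Figure D3:**
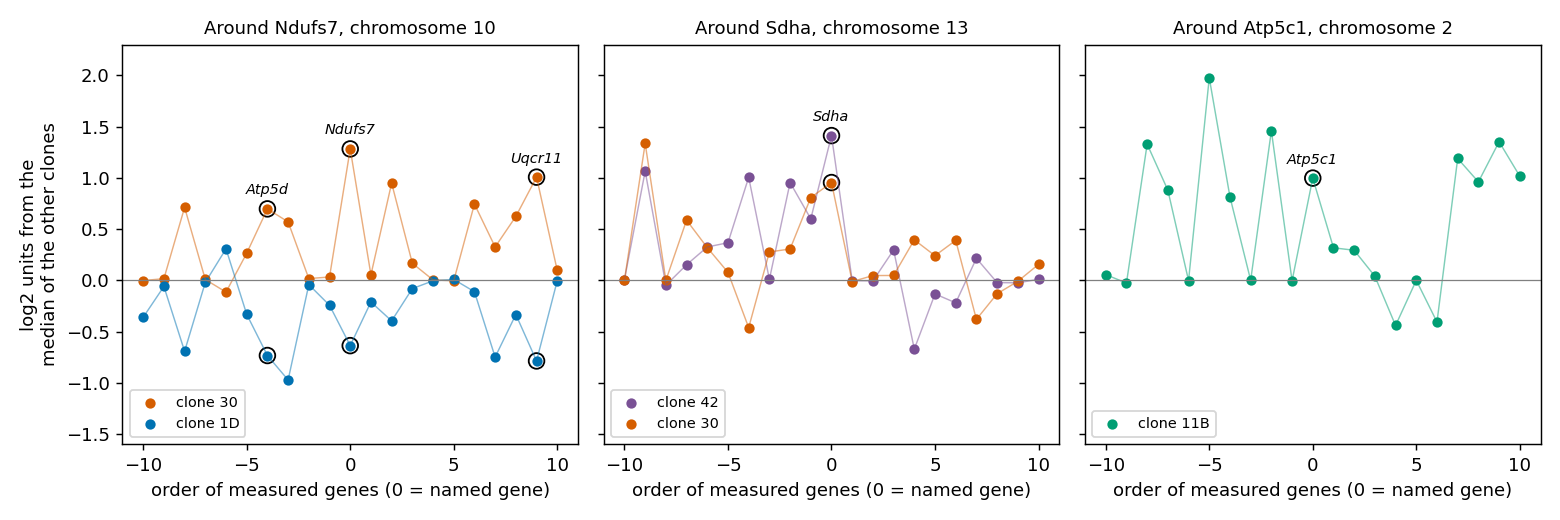
Deviation (log2 units from the median of the other clones) of the 10 measured genes on each side of Ndufs7, Sdha and Atp5c1, plotted by gene order; open rings mark members. In clone 30 the 3 members of chromosome 10 lie at 0.70 to 1.28, and in clone 1D at -0.79 to -0.64; 9 of the 20 neighbours of Atp5c1 lie at least 0.5 above 0 in clone 11B.

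Other gene lists of mitochondria were set beside the module. The 72 measured mitochondrial ribosomal proteins had medians between -0.03 and 0.01 in the 5 clones. Of them, 8 (11.1%, against 13.0% of all measured genes) ranged over 1 log2 unit. In clone 30 their median was -0.01, against 0.07 for the module. There, 6 of them (8.33%, against 6.19% of all measured genes) lay at least 0.5 units above the other clones. Clone 30 was the highest for 16 of them (22.2%, against 22.7%). Cytosolic ribosomal proteins, 36 measured, had medians of -0.03 in clone 1D, -0.08 in clone 11B, -0.12 in clone 20B, 0.14 in clone 30 and 0.15 in clone 42. The value of clone 42 was 0.08 without clone 20B, and that of clone 11B 0.01 without clone 42. In clone 30, 5 of the 36 (13.9%, against 6.19% of all measured genes) lay at least 0.5 units above, the same share as in the module. Clone 30 was the highest for 16 of the 36 (44.4%, against 22.7%). Proteasome subunits, 37 measured, had a median of 0.15 in clone 42 and between -0.07 and 0.01 in the other clones. The TCA cycle, which supplies NADH and succinate, had 13 of 17 genes measured and 1 (7.69%, against 13.0%) with a range of at least 1 log2 unit. This was Sucla2, a subunit of succinyl-CoA synthetase, with deviations of 0.95 in clone 42 and -0.68 in clone 30. Citrate synthase, Cs, lay at 0.47 in clone 30 and -0.29 in clone 1D, and Idh2 at 0.66 in clone 1D.

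Protein import, which brings nuclear-encoded subunits into mitochondria, had a median range of 0.79 over its 18 measured genes, against 0.56 for the module. Of the 18, 4 (22.2%, against 13.0% of all measured genes) ranged over 1 log2 unit. Tomm70a, a receptor of the outer membrane, had deviations of -1.95 in clone 42 and -1.52 in clone 30, and Timm17a, of the inner membrane channel, -0.96 and -1.45. Hspa9, the chaperone that pulls proteins in, was high in clone 1D, at 1.05. Of the 11 measured nuclear regulators only Nrf1, which encodes the factor NRF-1, ranged over 1 log2 unit (9.09%, against 13.0%). Its deviations were 0.76 in clone 1D, -0.48 in clone 11B, 0.11 in clone 20B, -0.36 in clone 30 and 0.25 in clone 42. Gabpa, an ETS factor, lay at 0.53 in clone 1D, Yy1 at -0.55 in clone 42, the hypoxia factor gene Hif1a at -0.73 in clone 11B, and the coactivator gene Ppargc1a ranged over 0.39. Among genes that assemble complex IV, Cox20 lay at -0.70 in clone 42 and -0.68 in clone 30, and among those for other complexes Bcs1l, which inserts the Rieske protein into complex III, lay at 0.88 in clone 20B. The heart form of the ADP/ATP carrier, Slc25a4, lay at 0.49 in clone 42 and -0.60 in clone 20B, and the outer membrane channel gene Vdac1 at 0.57 in clone 30 and -0.51 in clone 11B. Of the coenzyme Q genes, Coq3 was highest in clone 1D, at 0.75.

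**Figure D4:**
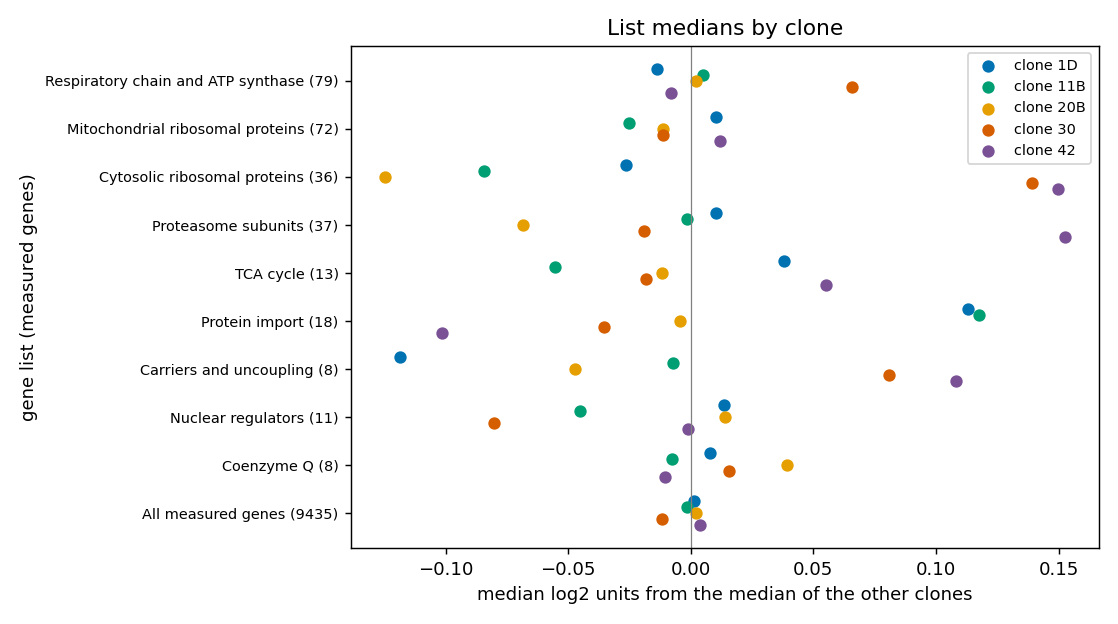
Median deviation by clone (points, in log2 units from the median of the other clones) for the module, for other lists and for all measured genes, with the number of measured genes in brackets. The module lies between -0.01 and 0.07, and the cytosolic ribosomal proteins between -0.12 in clone 20B and 0.15 in clone 42.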

How the data were processed

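Expression arrays of 5 clones, 1 per clone, were read as the deposited table gives them. The authors' values are taken as ratios: over the arrays the median of a probe set was exactly 1 or below 1, read from the values, since no header states the unit. The submitters' processing notes name RMA and GCRMA but give no version. Expression levels cannot be recovered, and the number of arrays limits the precision. Of 45101 probe sets, 34945 had 1 gene symbol and were used. A probe set counted as measured with a median of exactly 1, or with some clone over 1, provided its range was over 0.05 log2 units. Of the 12 members not measured, 8 lay at the floor and 4 were flat; 10 further probe sets carried several symbols. The value of a gene is the mean log2 ratio over its measured probe sets (Python 3.11.15, pandas 2.3.3). Each clone was its own group, so no test was run; thresholds of 0.5 and 1 log2 unit describe the differences. The members and lists were chosen with earlier results of these data known. The genes named were the 4 with the largest ranges per complex, those farthest from the next clone in each clone, isoform groups, and the 3 with the largest ranges per list; Atp5a1, Atp5b, Ndufs8, the neighbours and Idh2, Gabpa, Yy1 and Ppargc1a among others were added after their values were seen. Symbols matched the RefSeq table (GRCm38.p6) for 91 of 91 members; it gave gene order only. The calculations were tested on simulated data. Alternatives changed the probe sets, the scaling, the floor, the thresholds and the clones.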

Additional observations from a re-analysis of the deposited data

How the results depend on the processing

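No result changed direction in a called value. With every probe set averaged, floor-held ones included, the members' median in clone 30 was 0.00648, members below by 0.5 numbered 2 in clone 11B and 1 in clone 30, and the cytosolic ribosomal medians were -0.00174 in clone 11B, 0.0548 in clone 30 and 0.0469 in clone 42; Sdha in clone 42 was 0.46, Atp5c1 in clone 11B 0.50 and Atp5g2 in clone 30 0.21. Without probe sets marked for cross-hybridization the members' median in clone 30 was 0.0161, 1 member lay below there, and complex IV in clone 11B was 0.19. Mitochondrial DNA upkeep in clone 30 had a median of -0.02, but -0.27 with own-median probe sets only and without tied ones, and -0.35 on the probe set with the largest mean. With a threshold of 1 log2 unit, 2 members lay above in clone 30, 1 in clone 42 and 0 in clones 1D, 11B and 20B, and 0 lay below in every clone; with 0.5 in place of 1, 49 members met the range. Leaving out 1 other clone at a time gave 7 to 11 members with a range of at least 1 (7 without clone 30), 0.0160 to 0.0831 for the members' median in clone 30, 4 to 5 members above in clone 1D, 4 to 7 below in clone 11B, 0.0225 to 0.118 for complex I in clone 11B, and cytosolic ribosomal medians of -0.115 to 0.00838 in clone 11B and 0.0766 to 0.139 in clone 42. The cause of these moves was not tested, beyond the fewer clones and the floor-held probe sets that the settings bring in. Quantile normalization, centring each array, setting values below the floor to it and leaving out assembly factors kept each result near its value. No paired analysis was possible because each clone had 1 array and no replicate number was shared.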
